A study of Rattus norvegicus with 18 samples.

Results

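S100b, Gfap, Gap43, Gas7, Tubb3, Nefl, Vim and Nes are 8 genes whose products mark glial or neural cells or build and steer the cytoskeleton. They were followed in cultured primary rat Schwann cells grown with or without vitamin C, in RNA and in the DNA base 5-hydroxymethylcytosine. The members were found by gene name in the deposited peak list, which assigns hMeDIP peaks to genes. Of the 8 genes, 7 had peaks there and, through the list's gene identifiers, a row in the RNA table. Together these 7 genes had 79 of the 215951 peaks of the series: 39 for Gas7, 24 for Gap43, 6 for S100b, 3 each for Tubb3 and Nefl, and 2 each for Gfap and Vim. Nes, which encodes the intermediate filament protein nestin, had no peak in the list and so no RNA row that could be found by the rule, and was not analysed here.

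The groups were vitamin C-treated cells and untreated control cells, both primary Schwann cells at passage 3, with 3 numbered samples in each group. Each sample gave 3 libraries: ribodepleted total RNA, genomic DNA enriched for fragments holding 5-hydroxymethylcytosine by an antibody-based pull-down (hMeDIP), and genomic DNA that was not enriched (input). No source used here gives the dose and duration of the treatment, the age and number of the animals, or whether replicates are separate cultures. The p-values therefore cover the variation between these libraries only, and it may be technical.

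S100B is a calcium-binding protein used as a Schwann cell marker, and GFAP is the intermediate filament protein of astrocytes that immature and non-myelinating Schwann cells also make. Vimentin is the general filament protein of mesenchymal and glial cells, neurofilament light chain (Nefl) and class III beta-tubulin (Tubb3) are best known from neurons, GAP-43 is a membrane phosphoprotein of growth cones that Schwann cells away from axons also make, and GAS7 is an F-BAR protein that binds membranes and actin. 5-Hydroxymethylcytosine is made from methylated cytosine by the TET enzymes, whose iron centre is kept active by vitamin C, and it is common in the bodies of transcribed genes.

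Promoter sequences were available for 5 of the 8 genes in RefSeq (build GRCr8), and 4 of them are shown because they differ in the number of CG dinucleotides, where most methylated cytosine of the genome lies. Each runs 5′ to 3′ on the gene's strand from 250 bases before the RefSeq start to 50 bases after it, and capitals mark the CG dinucleotides. The Gfap promoter lies at chr10:88361612-88361911 (minus strand), that of S100b at chr20:12381032-12381331 (minus strand), that of Tubb3 at chr19:68365437-68365736 (plus strand) and that of Vim at chr17:81577011-81577310 (plus strand).
Gfap: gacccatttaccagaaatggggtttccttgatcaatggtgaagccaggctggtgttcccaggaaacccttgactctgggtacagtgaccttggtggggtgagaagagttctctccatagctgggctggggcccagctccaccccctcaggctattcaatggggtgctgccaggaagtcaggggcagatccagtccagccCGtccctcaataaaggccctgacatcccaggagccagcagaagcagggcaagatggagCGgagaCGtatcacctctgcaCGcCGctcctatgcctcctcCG
S100b: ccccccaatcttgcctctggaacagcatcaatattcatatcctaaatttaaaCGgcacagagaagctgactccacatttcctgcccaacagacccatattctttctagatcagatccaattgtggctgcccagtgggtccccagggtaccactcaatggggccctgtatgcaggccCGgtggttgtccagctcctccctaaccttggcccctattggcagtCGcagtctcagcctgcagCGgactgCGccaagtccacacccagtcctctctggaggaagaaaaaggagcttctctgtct
Tubb3: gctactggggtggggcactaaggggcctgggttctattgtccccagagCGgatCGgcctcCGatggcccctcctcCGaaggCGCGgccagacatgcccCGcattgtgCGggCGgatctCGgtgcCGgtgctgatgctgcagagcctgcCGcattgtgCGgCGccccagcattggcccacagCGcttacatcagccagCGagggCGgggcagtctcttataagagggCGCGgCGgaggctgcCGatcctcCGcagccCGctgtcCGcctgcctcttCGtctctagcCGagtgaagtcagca
Vim: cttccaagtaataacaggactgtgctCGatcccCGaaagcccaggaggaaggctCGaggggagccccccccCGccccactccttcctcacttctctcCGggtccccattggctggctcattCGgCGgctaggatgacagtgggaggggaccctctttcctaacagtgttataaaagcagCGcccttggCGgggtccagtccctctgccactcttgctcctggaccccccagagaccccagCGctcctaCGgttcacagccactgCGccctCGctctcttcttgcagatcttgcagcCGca
The Gfap and S100b promoters hold 6 and 5 CG dinucleotides in 300 bases, below the median of 7 over 33469 rat promoters of the same length. The Tubb3 promoter holds 26 and the Vim promoter 14, more than 84.8% and 66.5% of those promoters. The motif CG, which reads the same on both strands, occurs at least once in 94.5% of the promoters. Nes, whose promoter is not shown, holds 18. Gap43, Gas7 and Nefl are named only.

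Reads counted in genes numbered 23381814 to 33173282 per RNA library, and reads counted in peaks 24020306 to 39899445 per hMeDIP library and 7201638 to 9521037 per input library. Peaks held 40.8% to 43.9% of counted reads in the vitamin C hMeDIP libraries and 30.8% to 35.7% in the control ones. Counts of hMeDIP control replicates 1 and 3 differed by less than sampling noise (chi-square per degree of freedom 0.963, against 1.1 and 1.47 for the other control pairs), so these libraries were summed and counted as 1 sample, which leaves 3 vitamin C against 2 control values. No vitamin C pair exceeded the limit of 1.1 (0.896 for replicates 1 and 3, and 1.09 and 1.08 for the other pairs). These libraries were kept apart under the rule used, which asked for another pair above 1.1. The hMeDIP p-values thus rest on vitamin C libraries that differed by little more than sampling noise. In RNA, vitamin C replicate 1 stood apart from its group (29.3 and 41.0, against 5.54 between replicates 2 and 3), and 44.9% of its counted reads aligned at several places, the highest share of the 6 RNA libraries.

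The cultures carried Schwann cell RNA in both groups. Of 5 Schwann cell markers 4 had a symbol in the list and all 4 (Sox10, Erbb3, Cdh19 and Ngfr) were tested. Their summed level was 5916 to 6288 CPM with vitamin C and 5548 to 5692 CPM in controls, where CPM stands for reads scaled to the library's total in genes, with TMM factors. Cdh19, a cadherin of the lineage, rose and Erbb3, the neuregulin receptor, fell (log2 fold change -0.16 ± 0.05; edgeR quasi-likelihood test, adjusted p = 0.029), a call lost when scaled by all counted reads. RNA of the cells in which the members are otherwise known was scarce. Of 12 neuron markers 10 had a symbol, and 7 of these (Rbfox3, Snap25, Syt1, Elavl3, Elavl4, Stmn2 and Prph) never exceeded 11 reads in a library. The neuron list summed to 54.0 to 64.2 CPM with vitamin C and 35.4 to 45.5 CPM in controls, nearly all of it from Nefm and Map2. Of 5 astrocyte markers, Slc1a2 and Gjb6 had no read in any library, Aqp4 and Aldh1l1 at most 3, and only Slc1a3 was tested. Slc1a3, a glutamate transporter, averaged 1.21 ± 0.503 CPM with vitamin C and 0.439 ± 0.165 CPM in controls (SD, n = 3 each) and rose, as Gfap did (1.49 ± 0.40; edgeR, adjusted p = 0.0183). The astrocyte list summed to 0.668 to 1.73 CPM with vitamin C and 0.354 to 0.754 CPM in controls.

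Vitamin C went with opposite RNA changes among these genes. Of the 7 genes, Gfap, Tubb3 and Gas7 rose, S100b, Nefl and Gap43 fell, and Vim did not pass the test. Of all 12925 genes tested by edgeR's quasi-likelihood test at an adjusted p of 0.05, 19.1% were higher and 21% lower, 40.1% in either direction (2473 against 2715 genes, and 1642 against 1117 when scaled by all counted reads). In all 7 genes every vitamin C library lay on one side of every control library, which 54.7% of all genes tested also showed. Since these are bulk samples, fewer cells of a kind and less RNA per cell cannot be told apart. Levels are not compared between genes, since CPM is not corrected for length.

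**Figure D1:**
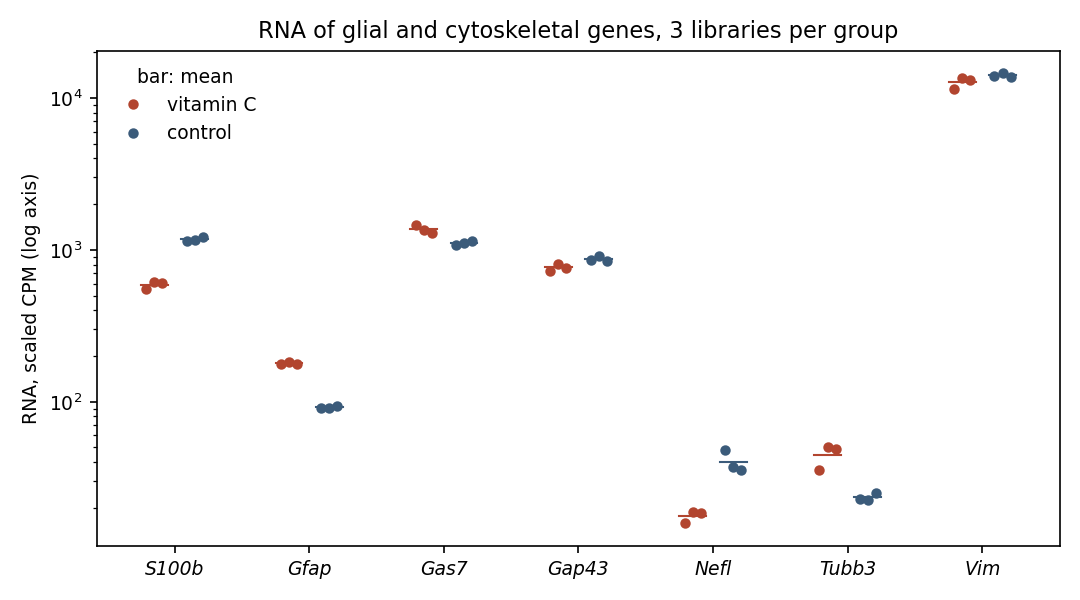
RNA level of each gene in each library, in scaled CPM on a log axis, for vitamin C (left, red) and control (right, blue), with the group mean as a bar. The groups are apart in every gene, by a fold of 1.95 in Gfap and 0.441 in Nefl but only 0.905 in Vim.

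S100b, the calcium-binding Schwann cell marker, was at 549, 618 and 603 CPM in the vitamin C libraries and at 1141, 1156 and 1221 CPM in the control libraries. All treated libraries were far below all controls. Its mean was 589.7 ± 36.4 CPM with vitamin C and 1173 ± 42.4 CPM in controls (SD, n = 3 each), a fold of 0.503 and a log2 fold change of -0.99 ± 0.06 (SE; edgeR, adjusted p = 9.21e-06).

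Gfap, the glial filament gene, was at 178, 184 and 177 CPM with vitamin C and at 91.4, 91.2 and 93.8 CPM in controls. Replicates of a group differed little and the groups were far apart. Its log2 fold change was 0.96 ± 0.05 (edgeR, adjusted p = 4.5e-06). S100b and Gfap thus changed by nearly the same amount in opposite directions.

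Nefl, the neurofilament light chain gene, was at 15.9, 18.9 and 18.6 CPM with vitamin C (403 to 530 reads), against 48.4, 37.3 and 35.5 CPM in controls (848 to 1325 reads). Control replicate 1 was higher than the other controls, and all 3 controls were above every treated library. The log2 fold change was -1.18 ± 0.13 (edgeR, adjusted p = 0.000163). Nefm, the medium chain that assembles with it, was at 21.0 ± 0.975 CPM with vitamin C and 18.5 ± 3.64 CPM in controls (SD, n = 3 each) and did not pass the test (0.18 ± 0.13; edgeR, adjusted p = 0.286).

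Tubb3, the neuron-type tubulin, was at 35.7, 50.1 and 48.6 CPM with vitamin C and at 22.7, 22.7 and 25.1 CPM in controls. Vitamin C replicate 1 was lower than the other treated libraries and still above the controls. The log2 fold change was 0.93 ± 0.12 (edgeR, adjusted p = 0.000565).

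Gas7, the F-BAR protein gene, was at 1468, 1349 and 1296 CPM with vitamin C and at 1075, 1116 and 1149 CPM in controls. The rise was small beside those of Gfap and Tubb3, with a log2 fold change of 0.30 ± 0.06 (edgeR, adjusted p = 0.00574). With libraries scaled by all counted reads, including those outside genes, the change was 0.28 and no longer passed (edgeR, adjusted p = 0.157).

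Gap43, the growth cone gene, was at 730, 811 and 760 CPM with vitamin C and at 856, 912 and 845 CPM in controls. The highest treated library was just below the lowest control, and the log2 fold change of -0.18 ± 0.06 was just inside the threshold (edgeR, adjusted p = 0.0407). The call was lost in 4 of 6 fits that left out 1 library: without control replicate 1 (-0.20, adjusted p = 0.0672), control replicate 2 (-0.15, adjusted p = 0.171), control replicate 3 (-0.20, adjusted p = 0.0675) or vitamin C replicate 3 (-0.18, adjusted p = 0.0893). It was also lost in DESeq2 (-0.17, adjusted p = 0.0588), with RLE scaling, without the low-count filter and with scaling by all counted reads.

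Vim, the vimentin gene, was at 11460, 13570 and 13154 CPM with vitamin C and at 13872, 14541 and 13781 CPM in controls. The treated libraries were all lower, but the highest of them (13570 CPM) was just below the lowest control (13781 CPM). The log2 fold change of Vim, -0.14 ± 0.08, did not pass (edgeR, adjusted p = 0.162). It was -0.07 without vitamin C replicate 1.

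The other genes of the same families were read from lists of relatives and partners. Of 11 tubulins, 7 had a symbol and were tested, and 6 rose (Tuba1b, Tuba4a, Tubb2b, Tubb4b, Tubb5 and Tubb6) and none fell, at a median log2 fold change of 0.36, against -0.01 over all genes tested. Tuba4a, an alpha-tubulin, averaged 27.4 ± 3.01 CPM with vitamin C and 13.3 ± 0.562 CPM in controls (SD, n = 3 each; 1.04 ± 0.09; edgeR, adjusted p = 6.08e-05). Tubb5, a widely expressed beta-tubulin, averaged 1189 ± 119 CPM with vitamin C and 785.9 ± 34.4 CPM in controls (0.60 ± 0.08; edgeR, adjusted p = 0.000543). Tubb2a did not pass (0.11 ± 0.09). Scaled by all counted reads, 3 of the 7 tubulins were higher, and with library size alone 4. Reads that aligned at several places, 32.7% to 44.9% of counted reads per RNA library, were not counted in any gene. Near-identical tubulin copies may therefore have lost reads, to a degree that was not tested.

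Of 15 microtubule and growth cone genes 12 were tested, and 6 rose, 1 fell and 5 did not pass, at a median of 0.37. Map4, a microtubule-associated protein of non-neuronal cells, averaged 1383 ± 105 CPM with vitamin C and 693.7 ± 24.6 CPM in controls (0.995 ± 0.0676 on the log2 scale; edgeR, adjusted p = 1.31e-05). The neuronal relatives Map2 (0.87 ± 0.12) and Mapt, which encodes tau (0.81 ± 0.09), also rose, as did Map1b (0.66 ± 0.13). Stmn1, a microtubule-destabilising protein, was the one that fell (-0.24 ± 0.08; edgeR, adjusted p = 0.0371), a call lost when scaled by all counted reads (5 higher and 0 lower), and Dcx, Stmn2 and Stmn3 never exceeded 9 reads in a library. This list summed to 5129 to 6291 CPM with vitamin C and 4317 to 4440 CPM in controls.

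Of 14 intermediate filament genes and partners 9 were tested, and 4 rose, 1 fell and 4 did not pass, at a median of 0.18. Desmin (Des), the muscle filament protein, averaged 37.9 ± 2.08 CPM with vitamin C and 13 ± 1.33 CPM in controls (1.54 ± 0.09; edgeR, adjusted p = 6.37e-06). Synemin (Synm), which co-assembles with desmin and vimentin, averaged 50.9 ± 10.1 CPM with vitamin C and 126.8 ± 7.73 CPM in controls (-1.32 ± 0.13; edgeR, adjusted p = 8.46e-05). Sync, which encodes syncoilin (0.69 ± 0.08), and the linkers Dst (0.42 ± 0.14) and Plec (0.35 ± 0.07) rose. The lamins Lmna, Lmnb1 and Lmnb2 did not pass.

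Of 10 S100 genes besides S100b, 7 had a symbol and were tested, and 4 rose and none fell, at a median of 0.29. The count that rose was 2 when scaled by all counted reads and 3 with library size alone. S100a3 averaged 4.95 ± 0.42 CPM with vitamin C and 2.34 ± 0.263 CPM in controls (1.07 ± 0.14; edgeR, adjusted p = 0.000442), and S100a11 averaged 82.4 ± 6.8 CPM with vitamin C and 52.6 ± 1.59 CPM in controls (0.65 ± 0.07; edgeR, adjusted p = 0.000212). S100a16 (0.57 ± 0.17) and S100a6 (0.29 ± 0.08) rose as well. S100a4, at 1111 ± 124 CPM with vitamin C and 1105 ± 48.8 CPM in controls, did not pass. None of these 7 genes passed as lower, as S100b did, and 3 did not pass in either direction.

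Around Gap43, 3 of 7 listed membrane and calmodulin genes had a symbol: Basp1, a growth cone protein of like charge and location, rose (0.22 ± 0.06; edgeR, adjusted p = 0.0162), Calm2, a calmodulin gene, fell (-0.41 ± 0.07; edgeR, adjusted p = 0.00274) and Calm3 did not pass. None of the 3 passed in either direction when scaled by all counted reads, and with library size alone 0 were higher and 1 lower. Around Gas7, 12 of 14 F-BAR and actin nucleation genes were tested, and 1 rose, 2 fell and 9 did not pass, at a median of 0.11. Pacsin2, an F-BAR protein of endocytosis, averaged 270.2 ± 16.1 CPM with vitamin C and 523.3 ± 25.2 CPM in controls (-0.95 ± 0.06; edgeR, adjusted p = 1.29e-05). Pacsin1 (-0.98 ± 0.25), at under 1 CPM in every group mean, fell too, and Srgap2 rose (0.35 ± 0.11; edgeR, adjusted p = 0.0402). Scaled by all counted reads the counts in this list were 0 higher and 2 lower, with RLE scaling 2 and 2, and in DESeq2 2 and 1. Without vitamin C replicate 1 they were 2 higher and 5 lower, and the median was -0.16.

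Of 13 Schwann lineage genes 11 were tested, and 4 rose, 2 fell and 5 did not pass, at a median of 0.12. Egr2, the transcription factor of myelinating Schwann cells, averaged 6.76 ± 0.761 CPM with vitamin C and 2.09 ± 0.375 CPM in controls (1.69 ± 0.16; edgeR, adjusted p = 7.57e-05). Pou3f1, a factor of the promyelinating stage, averaged 6.6 ± 0.147 CPM with vitamin C and 11.5 ± 0.213 CPM in controls (-0.81 ± 0.08; edgeR, adjusted p = 0.00012). Cdh19 (0.67 ± 0.09), Cadm4, an adhesion molecule of Schwann cells (0.61 ± 0.07), and Itga4 (0.46 ± 0.09) rose. Sox10 and Ngfr did not pass. The count that fell was 1 when scaled by all counted reads, and without vitamin C replicate 1 the count that rose was 6.

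Markers of other cell types moved with treatment too. Of 6 skeletal muscle markers 3 had a symbol, and Myh3, Actn2 and Myod1 all rose, with a summed level of 364 to 384 CPM with vitamin C and 85.1 to 127.9 CPM in controls. Of 7 pericyte and smooth muscle markers Tagln, Pdgfrb and Des rose, with a summed level of 188.6 to 216 CPM with vitamin C and 74.3 to 77.0 CPM in controls, while Acta2, Rgs5, Cnn1 and Notch3 never exceeded 10 reads in a library. Of 6 fibroblast markers with a symbol, Col1a1 rose, Pdgfra, Pi16 and Gsn fell, Dcn had no read and Thy1 at most 1. The fibroblast list summed to 9276 to 10787 CPM with vitamin C and 4516 to 4709 CPM in controls, nearly all of it from Col1a1. Of 4 perineurial markers Itgb4 and Ntn4 rose, Slc2a1 fell and Cldn1 was not tested (at most 2 reads), with a sum of 427.8 to 443 CPM with vitamin C and 144 to 148 CPM in controls. Of 4 melanocyte markers Mitf rose, Pmel fell, and Tyr and Dct had at most 1 read, with a sum of 53.2 to 79.2 CPM with vitamin C and 54.9 to 59.7 CPM in controls. Of 2 oligodendrocyte markers with a symbol Cldn11 fell and Mog did not pass, with a sum of 3.13 to 5.12 CPM with vitamin C and 6.4 to 7.47 CPM in controls. The macrophage and endothelial lists summed to at most 1.79 and 4.22 CPM in any library, and the endothelial receptor gene Tek averaged 3.51 ± 0.582 CPM with vitamin C and 1.57 ± 0.278 CPM in controls and rose (1.15 ± 0.19; edgeR, adjusted p = 0.00177). The part of any of these in the changes of the 7 genes was not tested.

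For each of the 7 genes the 2 genes of most similar RNA pattern were taken by Pearson r of log2 CPM over the 6 libraries, among 7214 genes, the lowest r being 0.988. S100b was most like Usp30 and Gapdh, Gfap like Dmtn and Nid2, Gap43 like Mfsd5 and Sec61g, Gas7 like Tgfbr2 and Cd47, Tubb3 like Dmpk and Mrpl33, Nefl like Vps29 and Ppat, and Vim like Oaz2 and Pdcd6ip. The 6 points fall into 2 groups and share their libraries, so these values are a description.

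The hMeDIP signal rose over 6 of the 7 genes and did not pass in Tubb3, when the reads of all peaks of a gene were summed. Over all 17003 genes with peaks, 38.5% were higher and 38.2% lower by the same edgeR test, so a rise was no more common than a fall in the series. In all 7 genes every vitamin C value was above every control value, and groups did not overlap in 83.7% of all genes. These changes are relative to the average gene, because TMM scaling sets the median change over all genes near 0 (0.01), whereas scaling by all counted reads moves that median to 0.42 over genes (11368 higher and 3127 lower, against 6544 and 6496) and, for single peaks, to 0.48.

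Gas7 had 770.6, 785.9 and 786.8 hMeDIP CPM in the vitamin C libraries and 591.1 and 574.2 CPM in the control values, replicates 1 and 3 summed and replicate 2. The 3 treated libraries were within a narrow range well above both controls. The log2 fold change was 0.42 ± 0.02 (edgeR, adjusted p = 2.19e-19).

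Gap43 had 246, 257 and 256.7 CPM with vitamin C and 191 and 206 CPM in controls, a log2 fold change of 0.37 ± 0.03 (edgeR, adjusted p = 6e-14). S100b had 133, 138 and 132 CPM with vitamin C and 109 and 111 CPM in controls, a log2 fold change of 0.29 ± 0.03 (edgeR, adjusted p = 3.6e-10). In both genes the mark was higher and the RNA lower with vitamin C.

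Gfap had 59.0, 58.3 and 57.4 CPM with vitamin C and 45.3 and 47.4 CPM in controls, a log2 fold change of 0.34 ± 0.04 (edgeR, adjusted p = 1.76e-08). Vim had 39.5, 37.2 and 38.1 CPM with vitamin C and 29.8 and 32.8 CPM in controls, a log2 fold change of 0.31 ± 0.06 (edgeR, adjusted p = 4.37e-06). Gfap RNA was higher with vitamin C, and Vim RNA did not pass.

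Nefl had 22.5, 23.4 and 24.3 CPM with vitamin C and 20.5 and 19.8 CPM in controls, a log2 fold change of 0.21 ± 0.07 (edgeR, adjusted p = 0.00484). Of its 3 peaks 1 rose, and the call was lost in DESeq2 (0.20, adjusted p = 0.0711). Tubb3 had 47.6, 51.7 and 48.8 CPM with vitamin C and 47.3 and 45.7 CPM in controls, a log2 fold change of 0.08 ± 0.05 that did not pass (edgeR, adjusted p = 0.129). Scaled by all counted reads it did pass, at 0.49 (edgeR, adjusted p = 3.49e-08), so that all 7 genes were higher under that scaling. Of the 7 genes Tubb3 had the smallest summed change in the mark, while its RNA rose nearly as much as that of Gfap.

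**Figure D2:**
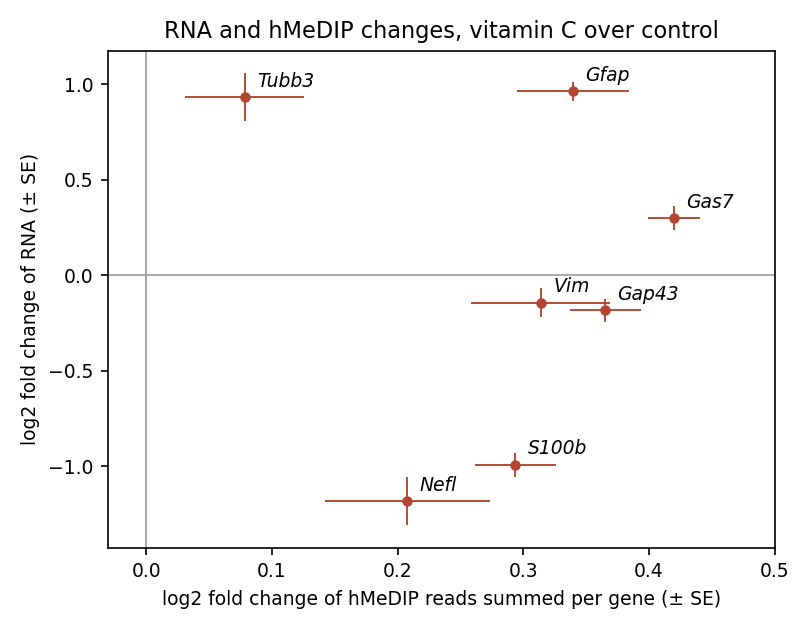
Log2 fold change of RNA (vertical) against that of hMeDIP reads summed per gene (horizontal), vitamin C over control, with bars of 1 standard error of each fit. All 7 points lie right of 0 for hMeDIP while RNA changes run from -1.18 in Nefl to 0.96 in Gfap.

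Enrichment over input gave the same order of groups without TMM scaling. It is the share of all counted hMeDIP reads that lay in a gene's peaks divided by the same share of input reads. In S100b it was 5.94, 6.83 and 6.82 with vitamin C and 4.19 and 3.82 in controls. In Gas7 it was 5.61, 6.1 and 5.95 with vitamin C and 3.6 and 3.06 in controls, and in Gap43 5.17, 5.4 and 5.05 with vitamin C and 3.03 and 3.03 in controls. Each of the 7 genes was higher in every vitamin C library than in both control values, as 63.9% of all genes were. The median over all genes was 4.57, 4.82 and 4.56 with vitamin C and 3.76 and 3.4 in controls. Tubb3 was the closest between groups, at 3.65, 4.85 and 4.21 with vitamin C and 3.45 and 2.75 in controls.

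Taken peak by peak, most hMeDIP peaks of these genes rose, and a smaller group fell. Of the 79 peaks 51 were higher, 12 lower and 16 not past the threshold, at a median log2 fold change of 0.48, against 36.7% higher, 37.7% lower and a median of 0.03 over all 215951 peaks. Scaled by all counted reads, 67 of the 79 were higher and 5 lower, and 132624 and 52835 of all peaks. Groups did not overlap in 69 of the 79, and in 81.6% of all peaks. Gas7 had 29 higher and 5 lower of 39, Gap43 14 higher and 5 lower of 24, S100b 3 higher and 1 lower of 6, Tubb3 2 higher and 1 lower of 3, and Gfap, Nefl and Vim 1 higher and none lower. Of 63 member peaks labelled gene body 40 were higher and 9 lower, where 44.3% and 29.7% of all gene body peaks were. Of the 16 labelled promoter 11 were higher and 3 lower, where 42.6% and 31.5% of all promoter peaks were.

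A feature of the peak list moved with direction. The list runs through the chromosomes more than once, and it was divided here at number 68433, where a new run was taken to begin. In the first part, of 68432 peaks with a median width of 507 bases, 2.81% of peaks were higher and 88.2% lower, at a median of -1.01. In the later part, of 147519 peaks with a median width of 715 bases, 52.4% were higher and 14.2% lower, at a median of 0.28. Of the members' peaks 13 were in the first part (3 higher, 7 lower, median -0.22) and 66 in the later part (48 higher, 5 lower, median 0.53). No source used here explains the order of the list, and its part in the direction of a peak was not tested.

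**Figure D3:**
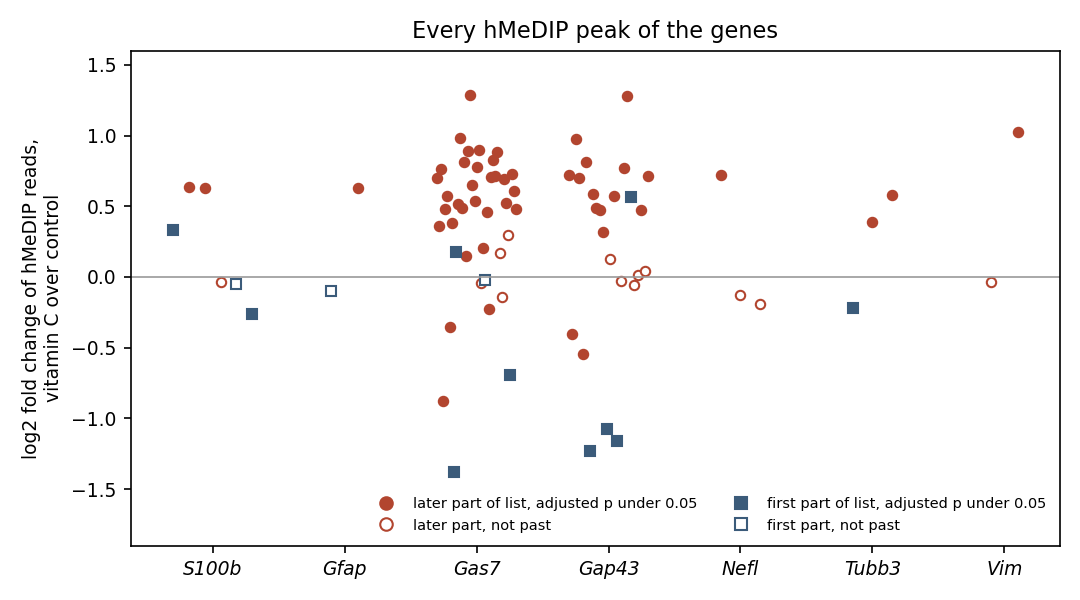
Log2 fold change of hMeDIP reads, vitamin C over control, for each of the 79 peaks, grouped by gene and ordered within it by position; circles are peaks of the later part of the list and squares of the first part, filled where the adjusted p was under 0.05. Most filled circles lie above 0, and 7 of the 10 filled squares lie below it.

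In the following, positions are on the genome build of the deposited list, which no source used here names, and distances are from the listed transcript start, negative upstream. Whether these starts are the RefSeq starts of the promoters printed above was not checked.

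Gfap had a peak of 3005 bases (chromosome 10, 90996873 to 90999878, minus strand) that ran from 372 bases upstream of the start of a listed transcript to 2633 bases into it. It had 19.0, 18.9 and 18.2 CPM with vitamin C and 12 and 12.2 CPM in controls. All treated libraries were above the controls, with a log2 fold change of 0.63 ± 0.06 (edgeR, adjusted p = 2.34e-13), and 0.59 over input (edgeR, adjusted p = 8.71e-06). The second Gfap peak (90994434 to 90996788), next to it, lay over the start of another listed transcript. It ran from 806 bases upstream of that start to 1548 bases downstream. This peak had 12.5, 12.2 and 12.2 CPM with vitamin C and 12.8 and 13.8 CPM in controls and did not pass (-0.10 ± 0.06; edgeR, adjusted p = 0.15), but scaled by all counted reads it rose (0.34; edgeR, adjusted p = 0.00221). This second peak was in the first part of the list.

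S100b gained in 3 of its 4 peaks labelled gene body, and its upstream peaks did not rise under TMM scaling. Its peak of highest CPM, a level not corrected for width in single peaks, (chromosome 20, 13130591 to 13134711, minus strand) lay in the gene body, centred 10205 bases from the start. It had 27.5, 28.1 and 25.5 CPM with vitamin C and 17.6 and 17.0 CPM in controls, a log2 fold change of 0.64 ± 0.05 (edgeR, adjusted p = 1.06e-14). Another rising peak labelled gene body (13128966 to 13130500) lay wholly past the 3′ end of the listed transcript. The gene body peak closest to the start (13136261 to 13138182) overlapped between groups and did not pass (-0.03 ± 0.07; edgeR, adjusted p = 0.657). The peak nearest the start (13142936 to 13144243), from 1387 to 80 bases upstream, had 8.56, 9.1 and 9.08 CPM with vitamin C and 9.25 and 9.16 CPM in controls and did not pass (-0.05 ± 0.07; edgeR, adjusted p = 0.555), but scaled by all counted reads it rose (0.40; edgeR, adjusted p = 0.000445). The peak farther upstream (13145044 to 13146464) had 9.71, 9.9 and 9.52 CPM with vitamin C and 11.3 and 12.4 CPM in controls and fell (-0.26 ± 0.07; edgeR, adjusted p = 0.000488), though scaled by all counted reads its change was 0.18 and did not pass (edgeR, adjusted p = 0.124). Both upstream peaks were in the first part of the list. In a fit of promoter peaks alone, with its own scaling, S100b was lower with vitamin C (-0.21; edgeR, adjusted p = 0.000175), against a rise over all its peaks.

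Tubb3 had peaks on either side of its listed start and none over it. The upstream peak (chromosome 19, 56217266 to 56220515, plus strand) ended 240 bases before the start and had 14.4, 15.2 and 15.5 CPM with vitamin C and 17.6 and 17.5 CPM in controls. It fell (-0.22 ± 0.06; edgeR, adjusted p = 0.000507), though scaled by all counted reads it rose (0.23; edgeR, adjusted p = 0.0387). The peak from 550 to 1988 bases downstream (56221305 to 56222743) had 6.36, 6.76 and 6.03 CPM with vitamin C and 5.14 and 4.3 CPM in controls and rose (0.39 ± 0.09; edgeR, adjusted p = 0.000279). The next one (56222839 to 56224000) had 4.55, 5.59 and 4.32 CPM with vitamin C and 3.16 and 3.34 CPM in controls and rose too (0.58 ± 0.12; edgeR, adjusted p = 1.48e-05). The upstream peak, which holds most of the reads, was in the first part of the list and the other two were in the later part. In a fit of the later part alone, with its own scaling, the summed Tubb3 signal passed the test (0.26; edgeR, adjusted p = 0.00076).

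Vim had no peak near its listed start, and both its peaks lay toward the 3′ end. The one farther from the start (chromosome 17, 80890742 to 80892134, plus strand) had 7.22, 7.51 and 7.69 CPM with vitamin C and 3.5 and 4.08 CPM in controls, a log2 fold change of 1.02 ± 0.10 (edgeR, adjusted p = 2.62e-13). Most of that peak lay past the listed transcript end at 80891212. The other (80887638 to 80890599) had 13.8, 12.3 and 12.5 CPM with vitamin C and 12.8 and 13.9 CPM in controls, overlapped between groups and did not pass (-0.03 ± 0.06; edgeR, adjusted p = 0.643), but scaled by all counted reads it rose (0.41; edgeR, adjusted p = 0.000289).

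Nefl had its rise in the peak nearest its start (chromosome 15, 44801214 to 44802298, plus strand), from 1880 to 2964 bases downstream. It had 5.16, 5.81 and 5.86 CPM with vitamin C and 3.5 and 3.17 CPM in controls, a log2 fold change of 0.72 ± 0.11 (edgeR, adjusted p = 3.27e-08). The peaks centred 3843 and 5313 bases from the start did not pass (-0.13 ± 0.16 and -0.19 ± 0.09; edgeR, adjusted p = 0.481 and 0.0585). The peak at 5313 bases rose when scaled by all counted reads (0.24; edgeR, adjusted p = 0.0449).

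Gap43 had a peak across its start that fell, between 2 that rose. The peak over the start (chromosome 11, 58623677 to 58624461, plus strand), from 521 bases upstream to 263 downstream, had 2.76, 3.04 and 2.83 CPM with vitamin C and 3.78 and 3.91 CPM in controls (-0.41 ± 0.12; edgeR, adjusted p = 0.00195), though scaled by all counted reads its change was 0.03. Over input the fall was -0.55 (edgeR, adjusted p = 0.0388), a call lost in 4 of 6 fits without 1 sample, the highest adjusted p being 0.205. Without TMM, enrichment over input in that peak overlapped between groups (3.74, 3.01 and 3.49 with vitamin C, 3.61 and 3.7 in controls). The peak that begins 866 bases downstream (58625064 to 58627639), the widest of the gene at 2575 bases and the one of highest CPM, though not per kb, had 17.1, 19.6 and 17.9 CPM with vitamin C and 9.36 and 9.12 CPM in controls (0.97 ± 0.07; edgeR, adjusted p = 6.39e-18). Farther in, the peak centred 45112 bases from the start (58669020 to 58669601) had 2.43, 3.27 and 3.17 CPM with vitamin C and 6.12 and 6.6 CPM in controls, the fall of smallest p in the gene (-1.08 ± 0.11; edgeR, adjusted p = 2.43e-12). Over input that fall was -0.70 (edgeR, adjusted p = 0.015), a call lost in 3 of 6 fits without 1 sample, the highest adjusted p being 0.195. Without TMM, enrichment over input there overlapped too (3.55, 6.6 and 6.22 with vitamin C, 6.38 and 6.77 in controls). This last peak was in the first part of the list, and the 2 near the start in the later part. Changes in the 24 peaks ran from -1.23 to 1.28.

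Gas7, the longest run of peaks, gained over most of its length. Its peak of highest CPM (chromosome 10, 54147559 to 54152919, plus strand) had 45.8, 47.7 and 48.5 CPM with vitamin C and 41.9 and 41.7 CPM in controls, a small rise (0.18 ± 0.04; edgeR, adjusted p = 0.000204) that did not pass over input (0.16; edgeR, adjusted p = 0.122). The peak across the start of a downstream listed transcript (54156029 to 54157064), from 620 bases upstream to 415 downstream, had 8.4, 8.38 and 8.79 CPM with vitamin C and 4.41 and 4.13 CPM in controls (0.98 ± 0.09; edgeR, adjusted p = 6.79e-14). The gain of smallest p (54171922 to 54173603) had 9.68, 9.65 and 10.2 CPM with vitamin C and 4.22 and 3.56 CPM in controls (1.29 ± 0.09; edgeR, adjusted p = 8.26e-18). The fall of smallest p (54129249 to 54130432), centred 3354 bases from the first listed start, had 4.3, 5.24 and 4.37 CPM with vitamin C and 8.59 and 8.38 CPM in controls (-0.88 ± 0.09; edgeR, adjusted p = 2.43e-12). Over input that fall was -0.60 (edgeR, adjusted p = 0.00608), a call lost in 2 of 6 fits without 1 sample, the highest adjusted p being 0.0728. Without TMM, enrichment over input in that peak overlapped between groups (3.74, 5.79 and 4.59 with vitamin C, 5.3 and 5.29 in controls). That falling peak was in the later part of the list and the peak of highest CPM in the first. Changes in the 39 peaks ran from -1.38 to 1.29.

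**Figure D4:**
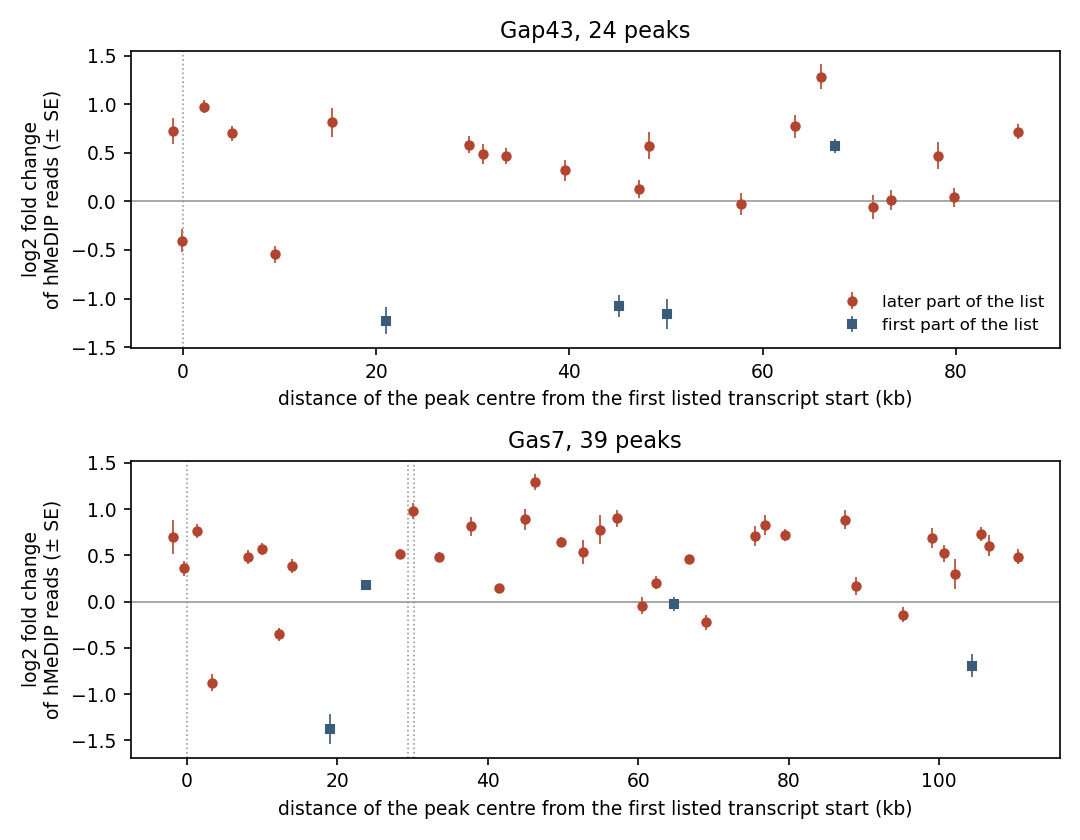
Log2 fold change of each hMeDIP peak, vitamin C over control with bars of 1 standard error, against the distance of its centre from the first listed transcript start in kb, for Gap43 (24 peaks) and Gas7 (39 peaks); dotted lines are listed transcript starts, circles and squares the later and first parts of the list. Gains run along both genes, with falls between them down to -1.23 in Gap43 and -1.38 in Gas7.

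Input DNA showed no called change in these peaks. None of the 79 passed edgeR's test in either direction, as none of the 215759 input peaks tested did (0%), and 3 of the 79 had an unadjusted p under 0.05, against 4.86% of all. DESeq2 was not run on the input. In the fit that sets the change in hMeDIP against the change in input of the same samples, 40 of the 79 peaks were higher and 10 lower (edgeR, adjusted p under 0.05), where 21.1% and 28.7% of all 215951 peaks were. TMM scaling set the median change of this fit near 0 as well (0.03), and scaling by all counted reads was not run for it. With library size alone 54756 of all peaks were higher and 57833 lower. Without TMM, the median enrichment over input of all peaks was 4.4, 4.63 and 4.41 with vitamin C and 3.67 and 3.35 in controls. The count of 10 lower peaks was 4 to 8 when 1 sample was left out.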

How the data were processed

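Per the labels, primary rat Schwann cells at passage 3 gave 3 vitamin C and 3 control samples, each sequenced as ribodepleted RNA, hMeDIP DNA and input DNA. The values the authors deposited are read counts, by gene for RNA and by peak for hMeDIP and input, with a peak list of positions, genes and regions. HTSeq, BWA, STAR, Trim Galore and CASAVA 1.4 appear, without roles, in the submitters' processing notes. No source used here gives the peak caller, build, annotation or strand setting, so RNA of overlapping or antisense genes cannot be told apart. No molecular identifiers are mentioned.

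The members and gene lists were chosen with earlier results of these data known. A pair of genes of the Schwann cell lists is not reported here. Genes and peaks were read from fits over all features with edgeR 4.0.16 (R 4.3.3): quasi-likelihood F test, TMM factors, default low-count filter, Benjamini-Hochberg adjustment at 0.05, treatment as the only term; errors of changes are SE. Entries naming no gene or peak (42.3% to 53.9% of RNA, 56.1% to 69.2% of hMeDIP and 91.3% to 91.6% of input reads) stayed out of library sizes. Libraries of a group with chi-square per degree of freedom of at most 1.1, where another pair exceeded it, were summed. The fit over input had a term per sample. Peaks were named by level, nearness to the start and smallest p in each direction, and list genes as up to 4 called genes of largest change; Plec, Itga4, Erbb3, Stmn1, Nefm, S100a4, Tubb2a and Calm3 fall outside that rule and were picked once their values had been seen. Alternatives were RLE, library size and all-read scaling, no filter, DESeq2 1.42.0, the replicate block, single libraries left out, other summing of libraries and other peaks per gene. The fits were tested on simulated data.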

Additional observations from a re-analysis of the deposited data

How the results depend on the processing

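Member counts kept within 1.5 times of the values above under RLE and library size scaling, without the low-count filter, in DESeq2 (RNA and hMeDIP) and with no or other libraries summed. Exceptions were scaling by all counted reads, with 5 falling peaks in place of 12, promoter peaks alone, with 1 gene lower by summed signal in place of 0, and single samples left out of the fit over input, with 4 to 8 falling peaks in place of 10. Left out in turn, single libraries gave 51 to 52 rising and 11 to 13 falling hMeDIP peaks. Whether replicate numbers shared by the groups pair samples cannot be settled with 3 libraries per group. Correlations of deviations between like numbers were 0.17, 0.051 and 0.0096 in RNA and -0.028, -0.2 and -0.11 in hMeDIP. The replicate block gave 3 higher and 3 lower genes in RNA, 6 higher in summed hMeDIP, 51 and 12 peaks, and 0 in input.

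Directions turned in peaks that had not passed and also in called falls. Those falls were the Gap43 peak over the start, the S100b peak centred 2898 bases upstream and the upstream Tubb3 peak. Scaled by all counted reads, the change was 0.033 in the Gap43 peak over the start, 0.34 in the second Gfap peak, 0.24 in the Nefl peak at 5313 bases, 0.40 and 0.18 in the S100b peaks centred 733 and 2898 bases upstream, 0.23 in the upstream Tubb3 peak and 0.41 in the Vim peak centred at 6452 bases. With library size alone, the S100b peak at 733 bases was at 0.032 and that Vim peak at 0.046. Without 1 library, the Vim peak ran from -0.14 to 0.0401. Over input without 1 sample, the second Gfap peak ran from -0.0012 to 0.17, the Nefl peak at 5313 bases from -0.23 to 0.11 and the S100b peak at 733 bases from -0.29 to 0.085. Summed signal was -0.14 for Nefl over gene body peaks, and -0.21 for S100b and -0.015 for Tubb3 over promoter peaks. The cause was not tested. In the fit of the later part alone Nefl was at -0.041 and Vim no longer passed (0.07; edgeR, adjusted p = 0.22). Both genes have 0 peaks in the first part, so their reads are the same there, and the scaling and fit over the other genes moved these values. The sums by region and by part of the list, the fit with libraries summed in both groups, the scaling of the fit per peak and the list counts under other settings were chosen after seeing the data. Keeping only peaks labelled promoter or gene body was not run, since every peak given to a gene has such a label. Depth limits most the peaks of few reads, and with 3 samples or fewer per group p-values rest on variance shared across features.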
